A study of Mus musculus with 44 samples.

Results

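Glycolysis genes and hypoxia response genes were read across macrophages (MFs) taken from injured mouse muscle. The set was a list of 38 gene symbols, and 36 of them had a probe set annotated with exactly that one symbol, among 19938 genes on the array. The listed symbols Gpi1 and Eno1 were not analysed here. The list was drawn up from gene function and not from measured values, although by then earlier results from these arrays were known. Cardiotoxin was injected into the tibialis anterior, CD45+ cells were selected with beads, and MFs were sorted as Ly6C+ F4/80low (inflammatory) or Ly6C- F4/80high (repair) cells. There were 44 arrays in 10 groups. KO mice were C57B6/J, PPARg fl/fl, LysM Cre+, and all other mice were WT (C57B6/J). Ly6C+ cells came at day 1 from KO (4 arrays) and WT (4 arrays), at day 2 from WT given rosiglitazone (3), untreated KO (5) and untreated WT (6), and at day 4 from KO (4) and WT (4). Ly6C- cells came at day 2 from WT given rosiglitazone (3), untreated KO (5) and untreated WT (6). The sources used here state neither the age of the mice nor how rosiglitazone was dosed. In KO mice Cre is driven from the Lyz2 (LysM) locus, so deletion of floxed Pparg extends to the myeloid lineage and not to MFs alone. Rosiglitazone is a synthetic agonist of PPARg, the lipid-sensing nuclear receptor encoded by Pparg. The labels call the arrays of a group biological replicates without saying which came from separate animals, and the series text mentions 3 animals without tying them to arrays, so p-values measure the spread between these samples, which may be technical.

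Glycolysis breaks glucose down to pyruvate in the cytosol, and lactate dehydrogenase turns pyruvate into lactate when it is not burned in mitochondria. HIF-1α, the product of Hif1a, is destroyed while oxygen is present because prolyl hydroxylases of the Egln family mark it. When oxygen falls, or when inflammatory signals stabilise it, it pairs with ARNT, binds short hypoxia response elements, whose core is ACGTG or GCGTG, and switches on glucose transporters, most glycolytic enzymes, the lactate exporter, mitochondrial brakes such as Pdk1 and Bnip3, and its own hydroxylases Egln1 and Egln3. Injured muscle loses part of its blood supply, and inflammatory MFs are known for running largely on glycolysis, whereas repair MFs are known for greater use of mitochondria.

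Promoters are shown because many of these genes are known targets of HIF-1. RefSeq promoter sequence (GRCm38.p6) was matched by symbol for 32 of the 36 genes, all but Slc2a3, Bnip3l, Ndrg1 and Plod2. The letters ACGTG, on either strand, lay in the 250 bases before a start site of 21 of these 32 genes (65.6%), against 18.5% of 27025 genes with a window of the same length. Counted by window, 24 of 47 windows of the set (51.1%) held ACGTG, against 16.6% of 32851 windows. With GCGTG also allowed, the shares were 93.8% of the 32 genes and 41.5% of all genes. The E-box CACGTG contains ACGTG on both strands and was present for 5 of the 32 genes (15.6%), namely Pfkfb3, Ldha, Hif1a, Bnip3 and Ak4, against 6.86% of all genes. A match is a string of letters in a window and was not tested for binding. The windows below end at the base before the start site. They are shown for genes of 5 roles that were lower at day 4 (glucose import, lactate export, oxidative folding, lactate production and the glycolytic ATP step), for Bnip3 as an E-box example, and for Pfkfb4, which was higher at day 4. Capitals mark ACGTG or its reverse complement CACGT, and Pfkfb4 has none, though it has 1 match to GCGTG. Ldha has a second window, chr7:46846832-46847081, that holds no ACGTG and is not shown. Genes without ACGTG also fell at day 4, as counted after the sequences, and none of those is shown.
Slc2a1, chr4:119108495-119108744, plus strand: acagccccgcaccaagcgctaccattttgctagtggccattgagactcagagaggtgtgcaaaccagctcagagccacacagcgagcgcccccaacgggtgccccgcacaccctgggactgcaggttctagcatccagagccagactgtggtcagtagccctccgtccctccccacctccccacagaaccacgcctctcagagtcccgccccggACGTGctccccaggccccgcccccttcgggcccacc
Slc16a3, chr11:120948817-120949066, plus strand: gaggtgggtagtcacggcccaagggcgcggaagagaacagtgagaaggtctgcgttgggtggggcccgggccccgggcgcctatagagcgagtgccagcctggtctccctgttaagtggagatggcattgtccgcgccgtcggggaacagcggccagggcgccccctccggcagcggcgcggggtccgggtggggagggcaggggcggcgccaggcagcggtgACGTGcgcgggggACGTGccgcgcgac
Ero1a, chr14:45318573-45318822, minus strand: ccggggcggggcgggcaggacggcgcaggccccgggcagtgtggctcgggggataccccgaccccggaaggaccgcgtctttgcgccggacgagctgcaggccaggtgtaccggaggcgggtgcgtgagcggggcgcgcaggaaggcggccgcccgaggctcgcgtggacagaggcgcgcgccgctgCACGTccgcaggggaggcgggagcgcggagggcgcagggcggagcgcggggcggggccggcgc
Ldha, chr7:46845554-46845803, plus strand: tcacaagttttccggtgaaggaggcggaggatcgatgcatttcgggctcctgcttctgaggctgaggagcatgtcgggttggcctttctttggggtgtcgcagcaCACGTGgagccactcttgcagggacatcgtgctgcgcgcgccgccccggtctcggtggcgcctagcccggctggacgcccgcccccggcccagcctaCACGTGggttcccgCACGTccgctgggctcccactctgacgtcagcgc
Pgk1, chrX:106186850-106187099, plus strand: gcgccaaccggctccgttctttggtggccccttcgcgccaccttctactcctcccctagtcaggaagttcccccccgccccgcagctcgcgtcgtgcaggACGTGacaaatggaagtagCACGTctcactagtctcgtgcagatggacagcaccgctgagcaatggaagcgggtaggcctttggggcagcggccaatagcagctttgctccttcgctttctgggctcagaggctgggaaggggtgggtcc
Bnip3, chr7:138909507-138909756, minus strand: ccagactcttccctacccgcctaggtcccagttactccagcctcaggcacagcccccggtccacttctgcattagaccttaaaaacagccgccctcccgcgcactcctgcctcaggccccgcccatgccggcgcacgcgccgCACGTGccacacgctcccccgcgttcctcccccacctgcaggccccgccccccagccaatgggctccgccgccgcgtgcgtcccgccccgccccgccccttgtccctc
Pfkfb4, chr9:108991652-108991901, plus strand: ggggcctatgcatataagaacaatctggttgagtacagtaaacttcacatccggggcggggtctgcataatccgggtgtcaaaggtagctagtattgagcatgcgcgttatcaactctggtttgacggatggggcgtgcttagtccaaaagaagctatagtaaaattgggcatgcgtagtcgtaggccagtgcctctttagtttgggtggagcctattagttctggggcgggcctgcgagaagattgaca
Both matches of Slc16a3 lie within the last 27 bases before the start site, and the only match of Slc2a1 begins 36 bases before it. Of the 21 genes with ACGTG, 18 were lower and none higher at day 4 than at day 2 in WT Ly6C+ arrays, and of the 11 without it 6 were lower and 3 higher, where 26% of all genes were lower and 23.8% higher. One of those 3 is Hk1, whose probe sets disagree. In KO, 16 of the 21 were lower and none higher, and 5 of the 11 lower and 2 higher (all genes 22.5% and 22.3%). In day 2 Ly6C- over Ly6C+ cells, 9 of the 21 were lower and 2 higher in KO, and 8 and 2 in WT. Of the 11, 2 were lower and 3 higher, and 3 and 4 (all genes 18.6% and 19.8%, and 23% and 22.2%). With rosiglitazone in Ly6C+ cells, 16 of the 21 and 5 of the 11 were lower (all genes 5.6%). All-gene shares were not split by ACGTG, so a link was not tested.

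Some arrays stood apart from their labels. Pparg itself did not separate the genotypes (10.39 ± 0.13 in KO and 10.31 ± 0.38 in WT day 2 Ly6C+ arrays, log2 intensity, SD, n = 5 and 6), and which exons its probe set reads against the deleted ones was not examined, so it checks nothing. Lyz2, the gene that carries Cre, lay between 9.07 and 9.96 on every KO array and above 12.6 on the WT arrays, with the exception of replicates 1 to 3 of both untreated WT day 2 groups, which lay between 8.67 and 9.29. Those 6 arrays are labelled WT and are called so here. Calls of genes of the set that end when these arrays, or the other 3 replicates, are used alone are named beside the result. Rosiglitazone arrays had Lyz2 between 12.9 and 13.2. The day 4 arrays are labelled Ly6C+ F4/80low, yet Igf1, a repair MF gene, averaged 11.23 ± 0.09 in KO and 11.09 ± 0.04 in WT at day 4 (SD, n = 4 each), close to the day 2 Ly6C- arrays (11.05 ± 0.09 and 10.90 ± 0.21, n = 5 and 6) and far above the day 2 Ly6C+ arrays (8.21 ± 0.52 and 7.93 ± 0.46, n = 5 and 6). Adgre1, which encodes F4/80, followed the same order. The day 4 arrays are therefore set against both day 2 subsets. In sorted but bulk RNA, fewer cells of a type and less RNA per cell cannot be told apart.

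The set varied between groups. The range of its 10 group means had a median of 1.11 on the log2 scale, against 0.453 over all genes. The range exceeded 1 for 20 of the 36 genes (55.6%), against 15.7% of all genes. The most variable gene, Egln3 (a HIF-induced prolyl hydroxylase that marks HIF-1α for destruction), read 7.83, 8.09, 9.20 and 9.28 in KO and 7.82, 7.80, 8.90 and 8.72 in WT at day 1. At day 2 in Ly6C- arrays it read 7.38, 7.80 and 7.98 with rosiglitazone, 6.97, 7.20, 7.62, 6.98 and 8.54 in KO and from 7.23 to 8.67 with a median of 8.15 in WT. In Ly6C+ arrays of that day it read 7.60, 7.38 and 7.84 with rosiglitazone, 8.48, 8.47, 8.55, 8.74 and 10.16 in KO and from 7.33 to 10.68 with a median of 9.85 in WT. The WT day 2 Ly6C+ group was thus both the highest group and the widest, and neighbouring groups below it overlapped. At day 4 Egln3 read 7.29, 6.90, 7.90 and 7.28 in KO and 7.44, 6.90, 7.14 and 6.91 in WT. These were the lowest pair of groups by mean, though not by median, and they overlapped the KO day 2 Ly6C- arrays.

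**Figure D1:**
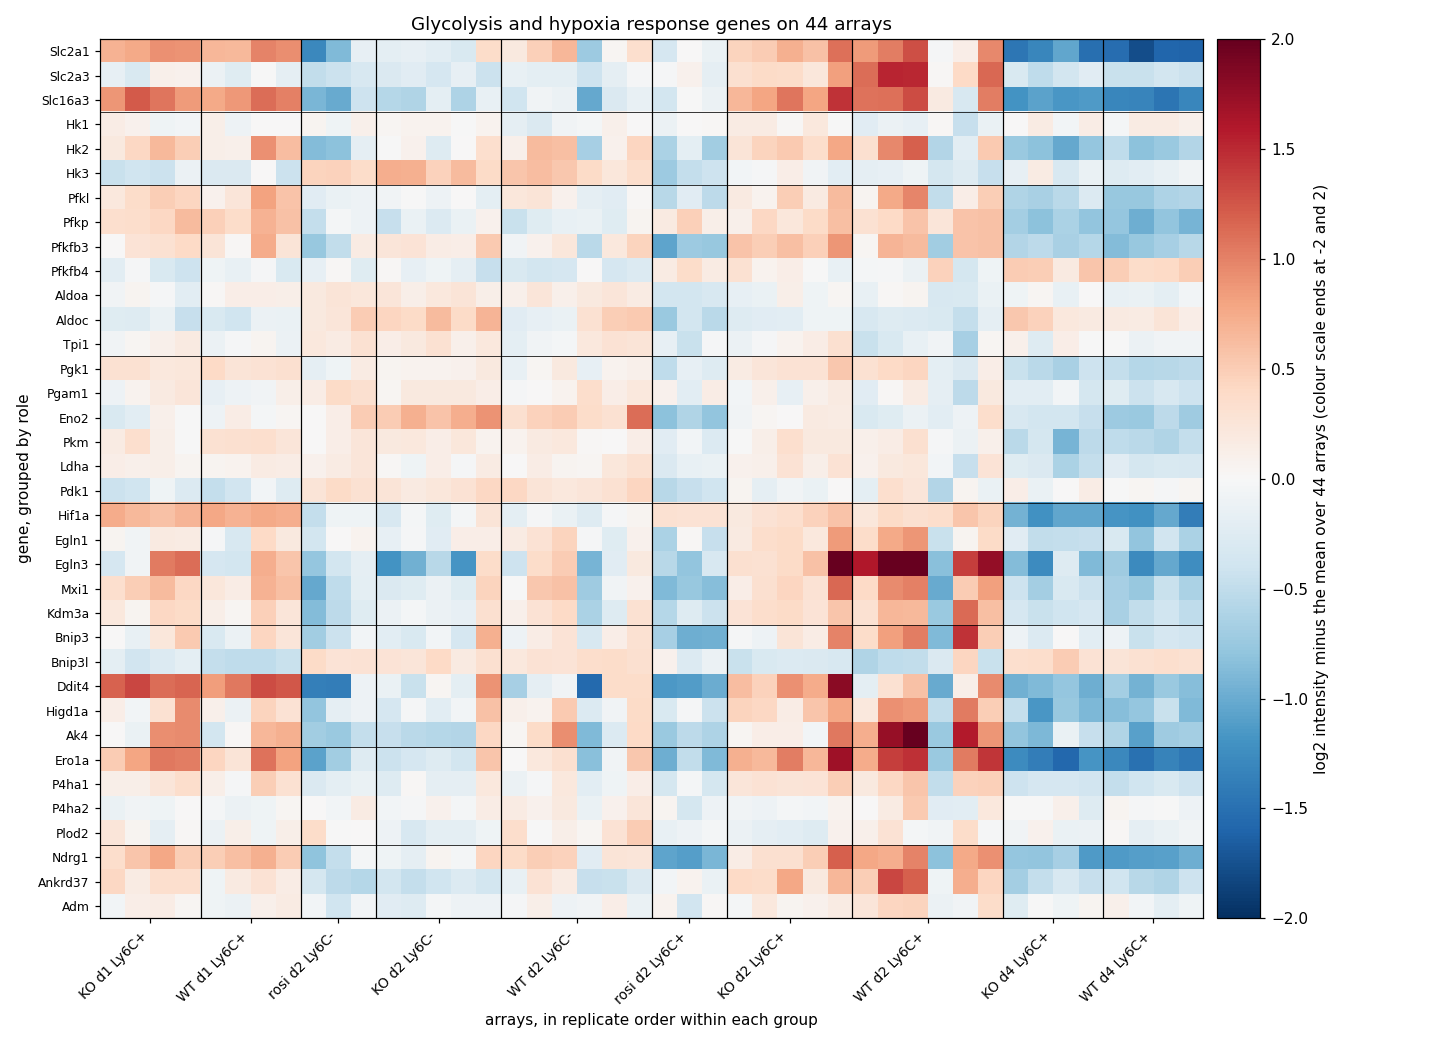
Log2 intensity of the 36 genes (rows, grouped by role) on 44 arrays (columns, replicates in order within each group; rosi, WT given rosiglitazone), each gene minus its mean over all arrays, with red above and blue below that mean. Day 4 columns are blue for transporters, Hif1a and Ero1a, the fourth WT day 2 Ly6C+ array is blue for most hypoxia genes among red neighbours, and the fifth KO day 2 array is the reddest of its group in both subsets.

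Single arrays moved the set as a block. The mean over the 36 genes was 8.98 on WT day 2 Ly6C+ replicate 4, against 9.53 to 9.93 on the other 5 arrays of that group, and that array was the lowest of its group for 23 of the 36 genes. WT day 2 Ly6C- replicate 4 was lowest for 19 of the 36 genes. KO day 2 replicate 5 was the highest of its group for 26 of 36 genes in Ly6C+ cells, with a mean of 9.90 against 9.46 to 9.59 on the other 4 arrays, and for 24 of 36 in Ly6C- cells. At day 1, WT replicate 3 was highest for 25 of 36 genes. After subtraction of the group means, the deviations of Egln3 over 44 arrays correlated most with those of Ak4 (r = 0.907), Mxi1 (r = 0.897), Ero1a (r = 0.873), Bnip3 (r = 0.855) and Ndrg1 (r = 0.84), and least with Pfkfb4 (r = -0.71), Hk1 (r = -0.377), Bnip3l (r = -0.0682) and Hk3 (r = -0.00548). These values describe genes read on the same arrays, which share a normalization. Many hypoxia targets thus tended to lie high or low together on an array. Hk3 and Bnip3l did not share that movement, and Pfkfb4 and Hk1 ran against it. Ldha (r = 0.336), Aldoa (r = 0.27) and Pkm (r = 0.0367) shared little of it.

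At day 2 genes of the set went both ways between the subsets. Genes for glucose and lactate transport, Hif1a, Egln3 and the HIF targets Ero1a and Ankrd37 were lower in Ly6C- than in Ly6C+ MFs, whereas the myeloid hexokinase Hk3, several glycolytic enzymes, Pdk1 and Bnip3l were higher. In KO, 6 of 36 genes were higher and 12 lower, at an all-gene background of 38.4% called (adjusted p below 0.05, limma, either direction; 19.8% higher and 18.6% lower). In WT, 7 were higher and 12 lower, at a background of 45.2% (22.2% higher and 23% lower). The median log2 difference of the set was -0.37 in KO and -0.24 in WT, against -0.09 and -0.07 over all genes. In either direction 50% of the set was called in KO and 52.8% in WT, close to those backgrounds. By direction, the share lower exceeded the background in both genotypes, more so in KO, and the share higher did not. None of these counts is read as a result about the set.

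Slc16a3, the lactate and proton exporter MCT4, read 9.87, 9.84, 10.25, 9.82 and 10.28 in KO Ly6C- arrays and 11.10, 11.22, 11.50, 11.23 and 11.88 in KO Ly6C+ arrays. In WT it read from 9.42 to 10.36 with a median of 10.22 in Ly6C- arrays and from 10.11 to 11.75 with a median of 11.49 in Ly6C+ arrays. KO groups did not overlap, while the WT Ly6C+ range reached down into the Ly6C- range through replicate 5 at 10.11. The log2 difference was -1.38 ± 0.20 in KO (SE, adjusted p = 3.9e-07, limma) and -1.07 ± 0.18 in WT (adjusted p = 5.2e-06). Slc2a3, the high-affinity glucose transporter GLUT3, read 6.65, 6.70, 6.60, 6.77 and 6.51 in KO Ly6C- arrays and 7.26, 7.32, 7.30, 7.17 and 7.75 in KO Ly6C+ arrays. It read from 6.53 to 6.91 with a median of 6.75 in WT Ly6C- arrays and from 6.96 to 8.45 with a median of 8.07 in WT Ly6C+ arrays, with no overlap in either genotype. The differences were -0.71 in KO (adjusted p = 0.00046) and -1.15 in WT (adjusted p = 2.1e-08, limma). Slc2a1, the widely used transporter GLUT1, fell by 0.77 in KO (adjusted p = 0.003) and by 0.54 in WT (adjusted p = 0.017).

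Hk3, a hexokinase of myeloid cells, went the other way. It read 10.05, 10.04, 9.79, 9.97 and 9.71 in KO Ly6C- arrays and 9.27, 9.31, 9.46, 9.26 and 9.12 in KO Ly6C+ arrays. It read from 9.56 to 9.95 with a median of 9.79 in WT Ly6C- arrays and from 8.88 to 9.25 with a median of 9.11 in WT Ly6C+ arrays. All Ly6C- arrays lay above all Ly6C+ arrays of the same genotype, by 0.63 ± 0.09 in KO (adjusted p = 6.7e-07) and 0.69 ± 0.08 in WT (adjusted p = 8.9e-09, limma). Hk2, the inducible hexokinase, did not pass in either genotype (log2 difference -0.44 in KO and -0.17 in WT). Among enzymes further down, Aldoa, Aldoc and Eno2 were higher in Ly6C- cells of both genotypes and Tpi1 in WT, whereas Pfkp, the platelet-type phosphofructokinase, fell by 0.52 in KO (adjusted p = 6.4e-05) and by 0.64 in WT (adjusted p = 3.3e-07). Pdk1, the kinase that shuts pyruvate out of the mitochondrial oxidation step, was higher by 0.34 in KO (adjusted p = 0.0087) and 0.36 in WT (adjusted p = 0.0018). Ldha, which makes lactate, did not pass (difference -0.13, 95% interval -0.31 to 0.05, in KO and 0.08, interval -0.08 to 0.25, in WT).

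Hif1a read 11.11, 11.39, 11.17, 11.39 and 11.69 in KO Ly6C- arrays and 11.61, 11.72, 11.76, 11.88 and 12.00 in KO Ly6C+ arrays. It read from 11.16 to 11.48 with a median of 11.35 in WT Ly6C- arrays and from 11.65 to 11.97 with a median of 11.79 in WT Ly6C+ arrays. The subsets did not overlap in WT and met in KO through replicate 5 of the Ly6C- group. The Hif1a difference was -0.45 ± 0.09 in KO (adjusted p = 8.1e-05) and -0.47 ± 0.08 in WT (adjusted p = 5.8e-06, limma). Egln3 was the gene of the set with the largest fall in both genotypes, -1.42 ± 0.40 in KO (adjusted p = 0.0048) and -1.52 ± 0.36 in WT (adjusted p = 0.00084). Ero1a, the endoplasmic reticulum oxidase that renews disulfide bonds and is induced by HIF, fell by 1.11 in KO (adjusted p = 0.0013) and by 0.85 in WT (adjusted p = 0.0051). Bnip3l, a mitophagy receptor, was higher by 0.61 in KO (adjusted p = 6.4e-06) and 0.62 in WT (adjusted p = 8e-07), while its relative Bnip3 did not pass in either (-0.30 and -0.48). The test of the genotype by subset interaction called none of the 36 genes (limma; 0 at an unadjusted p under 0.05; background 0.01%). Without WT day 2 Ly6C+ replicate 4 the WT subset comparison called 27 genes instead of 19, with WT replicates 1 to 3 alone it called 17 (34.8% of all genes), and with WT replicates 4 to 6 alone 13 (30% of all genes). Among the WT genes named here, the calls of Egln3 (-1.09, adjusted p = 0.087), Ero1a (-0.70, adjusted p = 0.13) and Slc2a1 (-0.48, adjusted p = 0.12) ended with replicates 4 to 6 alone. Those of Aldoa (adjusted p = 0.073), Aldoc (0.45), Tpi1 (0.14) and Pdk1 (0.22) ended with replicates 1 to 3 alone. Neutrophil markers, as a mean over 15 genes, read 6.70 to 6.77 in KO and 6.56 to 6.74 in WT Ly6C- arrays. In Ly6C+ arrays they read 7.03 to 7.30 in KO and 6.95 to 7.19 in WT. In each genotype 7 of the 15 were lower and 2 higher in Ly6C- cells. Of these 15, 8 including Ly6g, Elane and Mpo stayed below the median of all values in every group. Endothelial markers, as a mean over 8 genes, read 6.43 to 6.56 in KO and 6.50 to 6.75 in WT Ly6C- arrays. In Ly6C+ arrays they read 6.61 to 6.78 in KO and 6.55 to 7.29 in WT. Of the 8, 2 were lower and 1 higher in KO Ly6C- cells, and 6 lower and 1 higher in WT. Dendritic cell markers, as a mean over 9 genes, read 5.99 to 6.16 in KO and 6.09 to 6.20 in WT Ly6C- arrays, against 6.44 to 6.61 in KO and 6.62 to 6.78 in WT Ly6C+ arrays, with 5 of 9 lower in each genotype, and Xcr1, Clec9a and Itgae stayed below the median of all values in every group. Fibroblast markers, as a mean over 10 genes, read 6.83 to 6.92 in KO and 6.83 to 7.11 in WT Ly6C- arrays, against 6.93 to 7.09 in KO and 6.96 to 7.71 in WT Ly6C+ arrays, with none of 10 lower in KO and 6 in WT, and Lum, Pdgfra and Postn stayed below that median in every group. The part of these markers' cells in the subset differences was not tested.

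**Figure D2:**
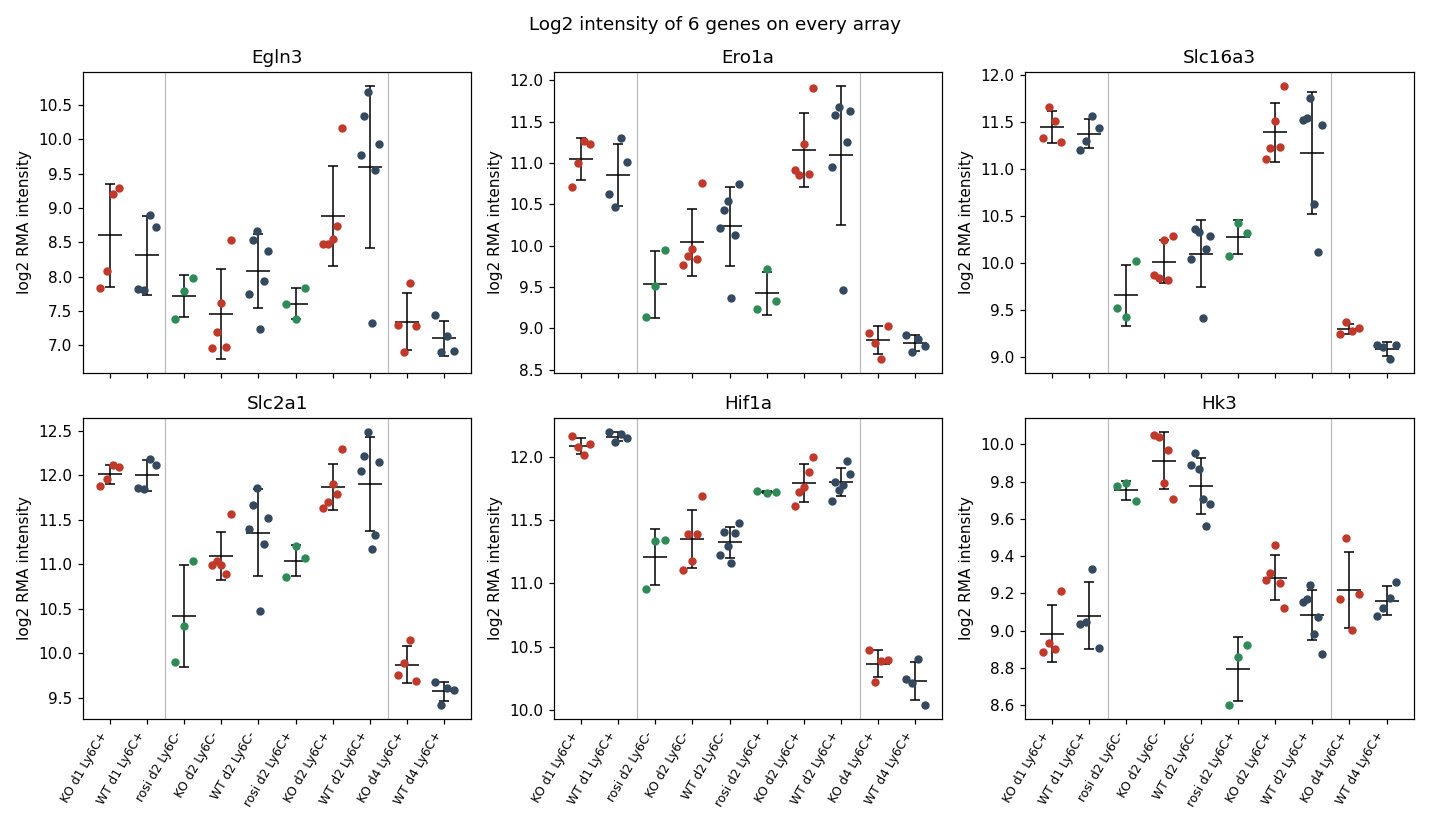
Log2 RMA intensity (vertical axes) of Egln3, Ero1a, Slc16a3, Slc2a1, Hif1a and Hk3 on every array (points; red KO, green WT given rosiglitazone, dark blue WT), with the group mean (bar) and SD (whiskers), for groups at day 1, day 2 and day 4 separated by grey lines. Hif1a steps down from day 1 to day 4, Hk3 is highest in the day 2 Ly6C- groups, and rosiglitazone Ly6C+ arrays sit with the lowest WT array for Egln3 and Ero1a.

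Rosiglitazone was given to WT mice only, and at day 2 its Ly6C+ arrays were low for most of the hypoxia response. Of the 36 genes, 23 were lower and none higher than in untreated WT Ly6C+ arrays, at a background of 11.1% called (5.52% higher and 5.6% lower), with a median difference of -0.58 against -0.02 over all genes. Ero1a read 9.23, 9.72 and 9.33 with rosiglitazone and from 9.46 to 11.67 with a median of 11.42 without. Its largest treated value lay above the lowest untreated array, replicate 4 at 9.46, and below the other 5. The difference was -1.67 ± 0.30 (3.17-fold lower, adjusted p = 0.00052, limma). Egln3 differed by -1.99 ± 0.45 (adjusted p = 0.0031), although all its treated arrays lay above untreated replicate 4. Ndrg1, a stress gene induced by hypoxia, read 9.41, 9.36 and 9.54 with rosiglitazone and from 9.63 to 11.45 with a median of 11.23 without, a difference of -1.58 ± 0.23 (adjusted p = 6e-05) with no overlap. Pfkfb3, which makes the activator of phosphofructokinase, read 8.94, 9.26 and 9.22 with rosiglitazone and from 9.28 to 10.67 with a median of 10.56 without, again with no overlap, and differed by -1.15 ± 0.20 (adjusted p = 0.00038). Eno2 was the only other gene of the set whose groups did not overlap, so that 3 of 36 were separated in full, against 3.07% of all genes.

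Other falls with rosiglitazone in Ly6C+ cells were -1.66 for Ak4, a mitochondrial adenylate kinase (adjusted p = 0.0028), -1.41 for Bnip3 (adjusted p = 0.00083) and -1.28 for the MYC antagonist Mxi1 (adjusted p = 0.0018). Ak4 has a second probe set, on which the difference was -0.45 (adjusted p = 0.0353). Slc2a1 fell by 0.86 (adjusted p = 0.012), Hk2 by 0.88 (adjusted p = 0.018) and Pdk1 by 0.42 (adjusted p = 0.014). Hif1a read 11.73, 11.72 and 11.72 with rosiglitazone and from 11.65 to 11.97 with a median of 11.79 without, inside the untreated range, and differed by -0.08 (95% interval -0.28 to 0.12, adjusted p = 0.67). Ldha (-0.24, adjusted p = 0.12) and Hk3 (-0.29, adjusted p = 0.061) did not pass. The genes that fell thus included a transporter, an inducible hexokinase and many hypoxia targets, whereas the Hif1a transcript did not pass.

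The count rested on which untreated WT arrays were used. Against WT replicates 1 to 3, whose Lyz2 level is near that of KO arrays, 29 of 36 genes were called (27 lower and 2 higher), against 27.3% of all genes in the same fit. Against replicates 4 to 6, whose Lyz2 level is that of the treated arrays, 5 were called, namely Ndrg1, Ero1a, Bnip3, Pfkfb3 and Eno2, against 1.55% of all genes, and Egln3 (-1.33, adjusted p = 0.15), Ak4, Mxi1, Slc2a1, Hk2 and Pdk1 no longer passed. Replicate 4 was the low array described above, and with replicates 5 and 6 alone 19 were called (18 lower and 1 higher), against 12.1% of all genes. Without untreated replicate 4 the count was 26, and without rosiglitazone replicate 1 it was 11. A fit to the 9 arrays of the comparison alone called none of them, with 24 at an unadjusted p under 0.05. Of the 36 differences, 31 were below 0 against all 6 WT arrays. The endothelial marker mean read 6.56 to 6.76 with rosiglitazone and 6.55 to 7.29 without, 4 of the 8 were lower, and 3 of the 8 (Tek, Esam and Emcn) stayed below the median of all values in every group. Their part in the fall was not tested.

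**Figure D3:**
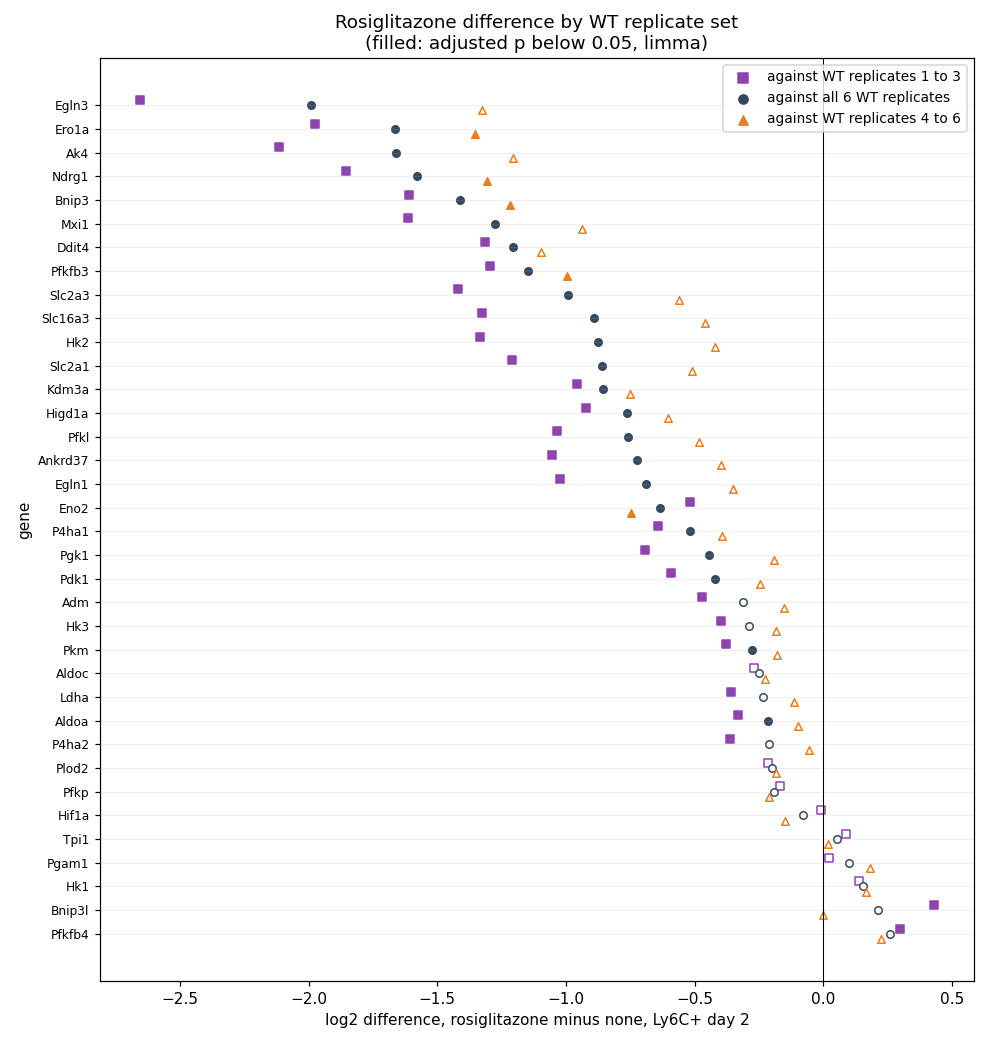
Log2 difference between rosiglitazone and untreated WT Ly6C+ arrays at day 2 for the 36 genes (rows, ordered by the difference against all 6 WT arrays), computed against WT replicates 1 to 3 (squares), all 6 (circles) and replicates 4 to 6 (triangles), filled where the adjusted p was below 0.05. The 3 sets run the same way for the upper rows, with 29, 23 and 5 filled symbols.

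In Ly6C- cells rosiglitazone called none of the 36 genes (limma, background 0.0351%), with 9 at an unadjusted p under 0.05, all lower. The pair with the smallest p was Slc2a1, 9.90, 10.31 and 11.04 with rosiglitazone and from 10.47 to 11.85 with a median of 11.46 without (-0.94 ± 0.23, adjusted p = 0.12), and Hk2 (-0.82 ± 0.25, adjusted p = 0.25). Treated Ly6C- replicate 3 was the highest of its group for 27 of 36 genes and overlapped the untreated range. The count was 11 against WT replicates 1 to 3 (12.8% of all genes), 0 against replicates 4 to 6 (0.015% of all genes), 2 without untreated Ly6C- replicate 4 and 1 without treated Ly6C- replicate 3. The difference between subsets in the rosiglitazone effect was tested by the interaction, which called none (12 at an unadjusted p under 0.05, background 0.015%). For Egln3 it was 1.63 ± 0.63 (adjusted p = 0.46) and for Slc2a3 0.77 ± 0.25 (adjusted p = 0.38). Without WT day 2 Ly6C+ replicate 4 the interaction called 7 genes.

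Within rosiglitazone-treated mice, 9 of 36 genes were higher and 3 lower in Ly6C- than in Ly6C+ cells, at a background of 23.2% (14.6% higher and 8.68% lower), and the median of the set was 0.20 against -0.04 over all genes. On these 6 arrays alone, 17 genes were called with the replicate number as a block and 14 without it. The counts above and the values that follow come from the main fit, which held no block. Hk3 was higher by 0.96 ± 0.12 (adjusted p = 2.9e-08), Eno2 by 0.96 ± 0.15 (adjusted p = 2.7e-06) and Pdk1 by 0.78 ± 0.13 (adjusted p = 1.1e-05), each without overlap. Hif1a differed by -0.51 ± 0.11 (adjusted p = 0.00055), the same direction as in untreated cells. The large falls of untreated Ly6C- cells did not pass here: Egln3 differed by 0.11 (95% interval -0.93 to 1.16) and Ero1a by 0.11 (interval -0.60 to 0.82), intervals that also hold sizeable falls.

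**Figure D4:**
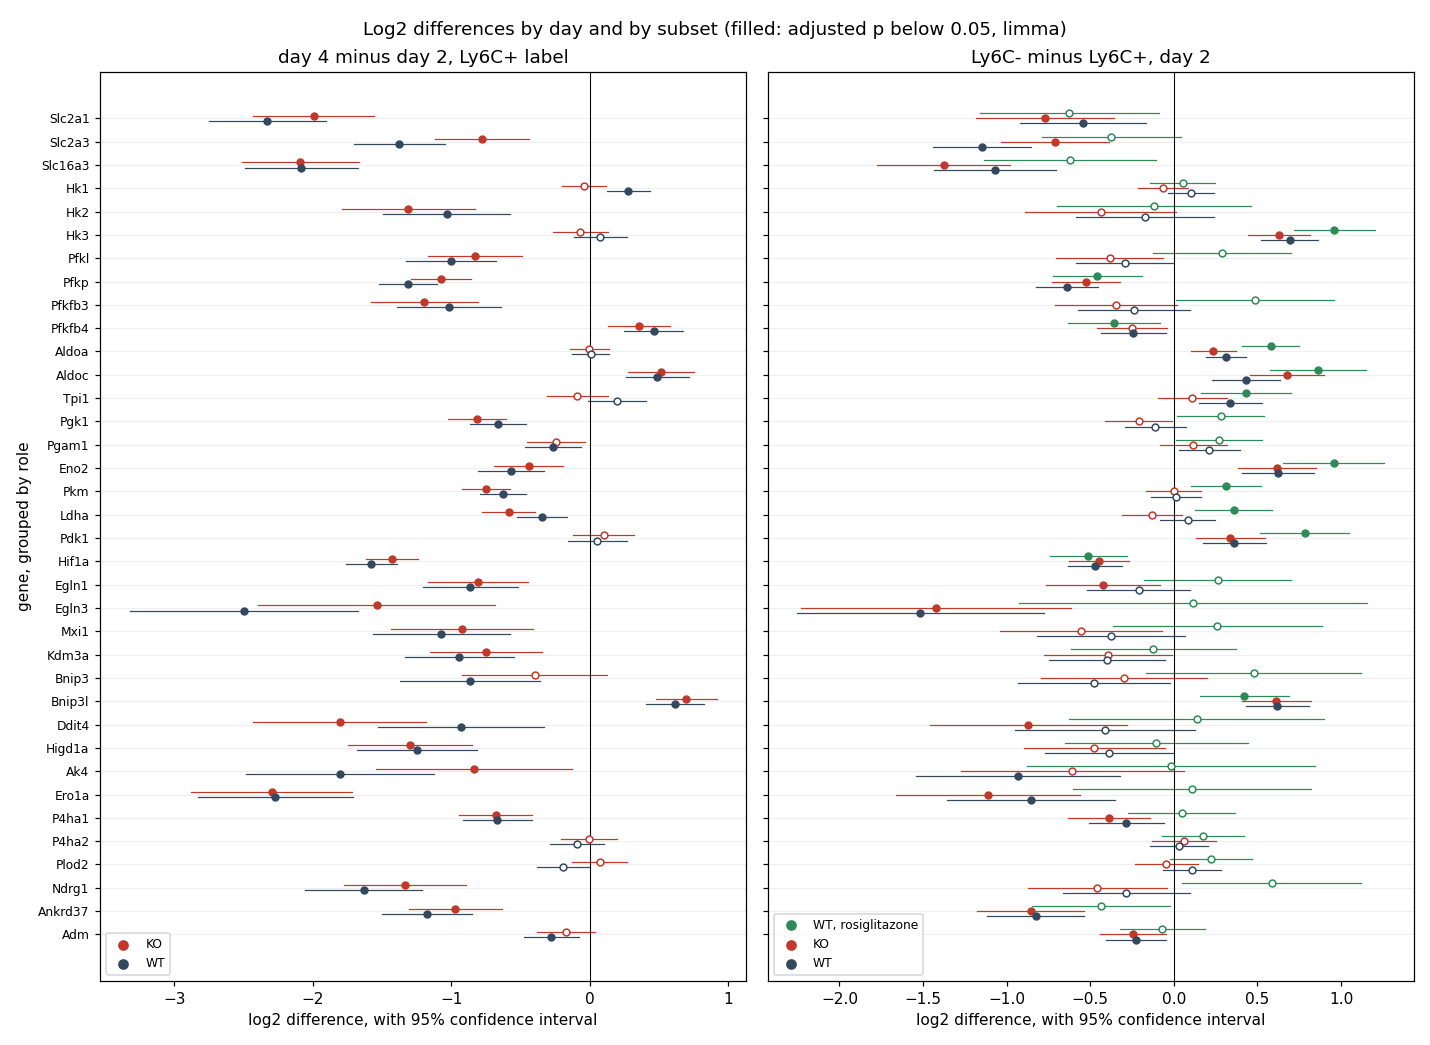
Log2 difference with its 95% confidence interval for the 36 genes (rows, grouped by role), for day 4 over day 2 in arrays labelled Ly6C+ (left) and for Ly6C- over Ly6C+ at day 2 (right), in rosiglitazone-treated WT (green, right panel), KO (red) and WT (dark blue), filled where the adjusted p was below 0.05. Most left-hand points lie below 0 with Bnip3l, Aldoc and Pfkfb4 above it, and Hk3 lies above 0 in all 3 right-hand comparisons.

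Between day 2 and day 1 few genes of the set passed in Ly6C+ arrays. In KO, 1 gene was higher (Hk3) and 1 lower (Hif1a), at a background of 8.64% (6.06% higher and 2.58% lower), and in WT 3 were higher (Egln3, Slc2a3 and Ankrd37) and 3 lower (Ddit4, Hif1a and Aldoa), at a background of 9.69%. Hif1a read 11.61, 11.72, 11.76, 11.88 and 12.00 at day 2 and 12.17, 12.08, 12.01 and 12.10 at day 1 in KO, and from 11.65 to 11.97 with a median of 11.79 at day 2 and 12.20, 12.12, 12.18 and 12.15 at day 1 in WT. Every day 2 array lay below every day 1 array of its genotype, with a difference of -0.29 ± 0.09 in KO (adjusted p = 0.041) and -0.36 ± 0.09 in WT (adjusted p = 0.0063, limma). Slc2a3 in WT read from 6.96 to 8.45 with a median of 8.07 at day 2 and 6.82, 6.70, 6.93 and 6.76 at day 1, without overlap (1.09 ± 0.16, adjusted p = 1.1e-05). In KO it differed by 0.49 ± 0.17 (adjusted p = 0.058), and the genotype by day interaction did not pass (-0.59 ± 0.23, adjusted p = 0.47). Ddit4, the stress-induced inhibitor of mTORC1, fell by 0.98 in WT (adjusted p = 0.027) and differed by -0.29 in KO (adjusted p = 0.59). With WT day 2 replicates 4 to 6 alone the WT calls of Egln3 (0.62, adjusted p = 0.45), Ankrd37 (0.22, adjusted p = 0.31), Hif1a (-0.29, adjusted p = 0.086) and Ddit4 (-1.09, adjusted p = 0.05) ended, and with replicates 1 to 3 alone that of Aldoa did (-0.12, adjusted p = 0.27). These counts were unsteady: the WT count of 6 was 10 without WT day 2 Ly6C+ replicate 4, 3 without WT day 1 replicate 2 and 11 with WT day 2 replicates 1 to 3, and the KO count ran from 0 to 3 as arrays were left out one at a time, reaching 0 without KO day 1 replicate 1 or without any one of KO day 2 replicates 1, 2 and 3, and 1 without any one of KO day 1 replicates 2, 3 and 4 or KO day 2 replicate 4.

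By day 4 the set had fallen widely. Against day 2 Ly6C+ arrays, 23 of 36 genes were lower and 3 higher in KO (background 44.8%, 22.5% lower), and 26 were lower and 4 higher in WT (background 49.8%, 26% lower). The medians were -0.76 in KO and -0.86 in WT, against -0.08 and -0.09 over all genes. In KO 23 genes, and in WT 12, were lower without overlap between the days, against 19.7% and 13.4% of all genes. All 3 glucose and lactate transporters were lower in both genotypes (group medians -1.99 in KO and -2.08 in WT). So were all 5 genes listed under HIF regulation, namely Hif1a, Egln1, Egln3, Mxi1 and Kdm3a (medians -0.92 in KO and -1.07 in WT). That heading is a list role, and Mxi1, for one, is the MYC antagonist named above. Of 7 upper glycolysis genes 3 were lower and 2 higher in each genotype. Slc2a1 read 11.88, 11.96, 12.11 and 12.09 at day 1, 11.63, 11.70, 11.91, 11.79 and 12.29 at day 2 and 9.76, 9.89, 10.15 and 9.68 at day 4 in KO. In WT it read 11.85, 11.85, 12.18 and 12.12 at day 1, from 11.18 to 12.49 with a median of 12.10 at day 2 and 9.68, 9.42, 9.60 and 9.59 at day 4. No day 4 array reached an earlier Ly6C+ array, and the day 4 to day 2 difference was -1.99 ± 0.22 in KO (3.98-fold lower, adjusted p = 4.3e-10) and -2.33 ± 0.21 in WT (5.03-fold lower, adjusted p = 2.3e-12, limma).

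Slc16a3 read 9.24, 9.37, 9.28 and 9.30 in KO and 9.13, 9.11, 8.98 and 9.13 in WT at day 4, below every day 1 and day 2 array, and fell by 2.09 in KO (adjusted p = 4.7e-11) and by 2.08 in WT (adjusted p = 1.6e-11) from day 2. Hif1a read 10.47, 10.22, 10.38 and 10.39 in KO and 10.25, 10.21, 10.40 and 10.04 in WT at day 4, again below all earlier arrays, and fell by 1.43 in KO (adjusted p = 2.2e-16) and 1.58 in WT (adjusted p = 2.7e-18). Ero1a fell by 2.30 in KO (adjusted p = 1.2e-08) and by 2.27 in WT (adjusted p = 5.7e-09). These 3 genes were separated from day 2 Ly6C+ arrays in full in both genotypes. Egln3 fell by 1.54 in KO (adjusted p = 0.003) and by 2.50 in WT (adjusted p = 2.2e-06), and Ddit4 by 1.81 in KO (adjusted p = 5.8e-06) and 0.93 in WT (adjusted p = 0.0092). Hk2 fell by 1.31 in KO (adjusted p = 1.4e-05) and by 1.03 in WT (adjusted p = 0.00023), whereas Hk3 (-0.07 in KO and 0.08 in WT) and Pdk1 (0.10 and 0.06) did not pass. Ldha fell by 0.58 in KO (adjusted p = 2.1e-06) and by 0.34 in WT (adjusted p = 0.0018). Ak4 fell by 1.80 in WT (adjusted p = 2.2e-05), and on its second probe set the difference was -0.51.

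Bnip3l, Aldoc and Pfkfb4 were higher at day 4 in both genotypes. Bnip3l read 12.15, 12.17, 12.33 and 12.11 in KO and 12.08, 12.12, 12.15 and 12.13 in WT at day 4, against 11.38, 11.52, 11.55, 11.53 and 11.50 in KO and from 11.22 to 12.26 with a median of 11.35 in WT at day 2. The KO days did not overlap, and in WT a single day 2 array, replicate 5, lay above day 4. The differences were 0.70 ± 0.11 in KO (adjusted p = 9.8e-07) and 0.62 ± 0.10 in WT (adjusted p = 4.2e-06). Aldoc, the brain-type aldolase, was higher by 0.52 in KO (adjusted p = 0.00036) and 0.49 in WT (adjusted p = 4e-04). Pfkfb4, an isoenzyme of Pfkfb3 whose promoter window above holds no ACGTG and 1 match when GCGTG is also allowed, was higher by 0.36 in KO (adjusted p = 0.0086) and 0.46 in WT (adjusted p = 0.00042). Hk1 was called higher in WT (0.28), but its second probe set, annotated with 8 transcript accessions against 1, gave -0.58 (adjusted p = 7.68e-07), so Hk1 has no settled direction.

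Falls also passed against the day 2 Ly6C- arrays, the subset nearest to the day 4 arrays in Igf1 and Adgre1. There 18 of 36 genes were lower and 1 higher in KO (background 24.8%, 11.8% lower), and 24 lower and 1 higher in WT (background 29.3%, 14.1% higher and 15.2% lower), with medians of -0.36 and -0.55 against 0.01 and -0.01 over all genes. In KO 22 genes and in WT 19 were lower without overlap, against 12.4% and 11.4% of all genes. Slc2a1 fell by 1.22 in KO (adjusted p = 2.2e-05) and by 1.79 in WT (adjusted p = 4.7e-09), and Hif1a by 0.98 in KO (adjusted p = 4e-11) and by 1.10 in WT (adjusted p = 3.7e-13). Hk3, which did not differ detectably from day 2 Ly6C+ cells, fell by 0.69 in KO (adjusted p = 3.8e-07) and by 0.62 in WT (adjusted p = 1.3e-06) on this comparison. Eno2 fell by 1.06 in KO (adjusted p = 5.1e-09) and by 1.19 in WT (adjusted p = 7.4e-11). Pfkfb4 was the single riser, by 0.61 in KO (adjusted p = 3.6e-05) and 0.70 in WT (adjusted p = 1.1e-06). Against day 1, 22 genes were lower and 5 higher in KO (background 64.3%, 37.1% lower) and 24 lower and 4 higher in WT (background 48.5%, 22.6% lower). The comparisons of day 4 share the same day 4 arrays. With WT day 2 replicates 4 to 6 alone, 21 genes were lower and 4 higher against day 2 Ly6C+ (39% of all genes called), and 21 lower and 1 higher against day 2 Ly6C- (24.1%). The day 4 over day 2 Ly6C+ calls of Ldha (-0.22, adjusted p = 0.096) and Ddit4 (-0.82, adjusted p = 0.076) in WT ended there. With replicates 1 to 3 alone, 27 were lower and 5 higher (54% of all genes), and 25 lower and 3 higher (34.7%).

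Markers of several other cell types also moved at day 4. Neutrophil markers read 6.39 to 6.47 in KO and 6.29 to 6.36 in WT at day 4, below the day 2 Ly6C+ and Ly6C- ranges given above. Skeletal muscle fibre markers, as a mean over 15 genes, read 6.86 to 7.04 in KO and 6.94 to 7.06 in WT at day 4. In day 2 Ly6C+ arrays they read 6.66 to 6.75 in KO and 6.59 to 6.73 in WT. In each genotype 9 of the 15 were higher and 1 lower at day 4. Of the 15, 7, including Myh1, Myh2, Myh4 and Ttn, stayed below the median of all values in every group. Dendritic cell markers read 6.61 to 6.95 in KO and 6.71 to 6.81 in WT at day 4, above the day 2 Ly6C- arrays, with 5 of 9 higher in KO and 4 of 9 in WT on that comparison. Against day 2 Ly6C+ arrays 3 of 9 were higher and 2 lower in KO, and 2 higher and 3 lower in WT. Fibroblast markers read 7.24 to 7.40 in KO and 7.07 to 7.51 in WT at day 4. Of the 10, 5 in KO and 6 in WT were higher than in day 2 Ly6C- arrays. Against day 2 Ly6C+ arrays 4 were higher in KO and 2 in WT. In each of these comparisons 1 of the 10 was lower. Endothelial markers read 6.45 to 6.61 in KO and 6.50 to 6.57 in WT at day 4. Of the 8, 1 in KO and 5 in WT were lower than in day 2 Ly6C+ arrays, and none higher. T and NK cell markers, as a mean over 10 genes, read 6.30 to 6.42 in KO and 6.36 to 6.46 in WT. Against day 2 Ly6C- arrays 3 were higher and 1 lower in KO, and 5 higher and 1 lower in WT. Of these 10, 7 stayed below the median of all values in every group. The part of these cells in the day 4 values was not tested. The enolase Eno3 belongs to both the muscle list and the list of other glycolysis genes.

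Few genes of the set passed between KO and WT cells of the same day and subset. At day 1 no gene was called (limma; 1 at an unadjusted p under 0.05; background 0.0351%, 0.0301% higher and 0.00502% lower), and at day 4 none (1 at an unadjusted p under 0.05; background 0.0652%, 0.0201% lower). The smallest p belonged to Aldoa at day 1 (-0.16, adjusted p = 1) and to Eno2 at day 4 (0.30, adjusted p = 1). For Slc2a1 the 95% interval of the difference was -0.45 to 0.47 at day 1 and -0.16 to 0.76 at day 4, and for Hif1a -0.27 to 0.13 and -0.06 to 0.34. At day 2, 1 gene was called in Ly6C+ cells (Hk1, 0.29, adjusted p = 0.024; background 1.88%, 0.787% lower), and on the second Hk1 probe set the difference was 0.02. In Ly6C- cells 1 was called (Plod2, a lysyl hydroxylase of collagen, -0.39, adjusted p = 0.045; background 0.201%, 0.0853% higher), from 4.46, 4.24, 4.36, 4.36 and 4.47 in KO and from 4.55 to 5.06 with a median of 4.76 in WT, a level near the bottom of the array at which the groups did not overlap. Neither count was steady. In Ly6C+ cells it was 5 without WT replicate 4, 3 without WT replicate 6, 2 without KO replicate 5, and 0 without WT replicate 1 or KO replicate 1, 2 or 4 (limma; 7 or 8 at an unadjusted p under 0.05). In Ly6C- cells it was 0 without WT replicate 1 or 3 or any one of the 5 KO arrays (2 or 3 at an unadjusted p under 0.05).

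The day 2 genotype values again turned on the WT arrays used. Against WT replicates 1 to 3, 10 of 36 genes were called in Ly6C+ cells (15.1% of all genes) and 6 in Ly6C- cells (14.4%). Against replicates 4 to 6, 1 was called in Ly6C+ cells (1.62% of all genes) and 0 in Ly6C- cells (0.115%; limma, 2 at an unadjusted p under 0.05), and the calls of Hk1 and Plod2 ended. Slc2a3 in Ly6C+ cells differed by -0.96 against replicates 1 to 3 (adjusted p = 5.2e-08, limma) and by -0.10 against replicates 4 to 6 (adjusted p = 0.84). Egln3 differed by -1.38 (adjusted p = 0.0074) and by -0.05 (adjusted p = 0.98), and these genes were chosen after their values were seen. Between WT replicates 1 to 3 and 4 to 6 themselves, over both subsets, 13 of 36 genes passed (36.1%), 11 of them higher in replicates 1 to 3, against 20.8% of all genes. Interactions of genotype with day called none of the 36 genes, for day 2 over day 1 (limma; 4 at an unadjusted p under 0.05; background 0.01%) and for day 4 over day 1 (2 at an unadjusted p under 0.05; background 0.015%).

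Related genes outside the set gave context. Among 32 other HIF pathway and hypoxia genes, 9 were higher and 8 lower in KO Ly6C- than Ly6C+ cells, and 8 higher and 10 lower in WT, or 53.1% and 56.2% called against 38.4% and 45.2% of all genes. The largest rise was Epas1, which encodes HIF-2α, by 1.42 ± 0.14 in KO (adjusted p = 8.8e-11) and 1.23 ± 0.13 in WT (adjusted p = 2e-10), in the comparison where Hif1a was lower. At day 4 over day 2 Ly6C+, 9 were higher and 11 lower in KO, and 6 higher and 13 lower in WT, or 62.5% and 59.4% against 44.8% and 49.8% of all genes. Vegfa, the angiogenic growth factor, differed by -2.70 in KO (adjusted p = 3.1e-07) and -3.03 in WT (adjusted p = 9.9e-09), and Hilpda, an inhibitor of lipid droplet breakdown, by -2.14 and -2.43, while Epas1 was again higher, by 1.02 and 0.68. With rosiglitazone in Ly6C+ cells 10 of the 32 (31.2%) were lower and none higher, against 11.1% of all genes called, led by Vegfa (-1.49, adjusted p = 0.016) and Hilpda (-1.31, adjusted p = 0.026). Calls of genes outside the set were not read with WT replicates 1 to 3 or 4 to 6 alone. Whether they hold there was not tested.

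Of 21 other glycolysis genes, 7 rose and 7 fell at day 4 in KO, and 7 rose and 4 fell in WT, or 66.7% and 52.4% against 44.8% and 49.8% of all genes. Ldhb, the lactate dehydrogenase subunit typical of oxidative tissue, rose by 1.54 in KO (adjusted p = 5e-17) and 1.32 in WT (adjusted p = 1.5e-15), while the lactate and pyruvate carrier Slc16a1 fell by 1.61 in KO and by 1.83 in WT. Pfkm, the muscle-type phosphofructokinase, rose by 1.02 in KO and 0.93 in WT, whereas the liver-type Pfkl fell by 0.83 in KO and by 1.00 in WT and Pfkp by 1.07 in KO and by 1.31 in WT. Of 12 genes for pyruvate entry into mitochondria, 8 were higher and none lower in Ly6C- than in Ly6C+ cells in each genotype (66.7%, against 38.4% of all genes in KO and 45.2% in WT), among them the carrier Mpc1 (0.59 in KO and 0.60 in WT) and the phosphatase Pdp1, which reactivates pyruvate dehydrogenase (0.85 and 0.88). The list did not keep this direction at day 4. Against day 2 Ly6C- cells 4 of the 12 were lower and 2 higher in KO, and 6 lower and 1 higher in WT. Against day 2 Ly6C+ cells 4 were higher and 2 lower in KO, and 2 higher and 1 lower in WT. The last count is 25%, under the 49.8% of all genes. At day 4 the kinase Pdk2 rose over day 2 Ly6C+ by 2.09 in KO (adjusted p = 3.5e-18) and 1.98 in WT (adjusted p = 4.5e-18), where its isoenzyme Pdk1 did not pass. Of 6 pentose phosphate pathway genes, 1 was higher and 1 lower in Ly6C- than in Ly6C+ cells in KO, and 2 were higher in WT, or 33.3% in each, under the share of all genes.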

How the data were processed

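The authors deposited log2 intensity values, made by RMA (robust multi-array average, per the labels), for 35556 probe sets on 44 arrays. Array medians ran from 6.64 to 6.77, and no pair of arrays was identical (lowest pair correlation 0.935). The number of arrays limits the precision. A probe set was used where the platform annotation gave it 1 symbol (21789 probe sets; 1621 had several), and a gene was read from its probe set with the highest mean, giving 19938 genes. Several listed genes have more than 1 probe set, and probe sets can share near-identical copies of a gene. Limma 3.58.1 in R 4.3.3 fitted 1 mean per group over all 44 arrays, with eBayes. Adjusted p-values are two-sided, by Benjamini-Hochberg over all genes of a contrast, and a gene was called below 0.05. Fits were tested on simulated data. Differences are on the log2 scale with their SE.

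The members and lists were chosen with earlier results of these data known. The text names up to 6 of the largest rises and falls per contrast among members that passed, or the 2 with the smallest p. Another 10 members could be read in any contrast (Slc2a1, Hk2, Hk3, Pfkfb3, Ldha, Pdk1, Hif1a, Egln1, Egln3 and Bnip3). Not all of these are given for each contrast, so they are not a fixed panel. The main fits did not pair arrays by replicate number, for any contrast. Same-numbered arrays of the rosiglitazone-treated subsets deviated together in all 3 pairs (r = 0.134 to 0.443). Most untreated subset pairs did so too, with r over 0.1 for 5 of 6 WT and 4 of 5 KO pairs. A replicate block was run only as an alternative. Alternatives were the scaling, a filter on dim genes, the mean over probe sets, trended and robust eBayes, fits to fewer arrays, a replicate block and leaving out arrays. Values of other genes given for contrast were chosen after they were seen. WT day 2 replicates 5 and 6 alone were chosen after seeing the data.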

Additional observations from a re-analysis of the deposited data

Results flagged for a closer look

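Single arrays far from the rest of their group were looked for among 15 genes of the set in 120 groups of 4 to 6 arrays, and 14 were found. By construction the limit used flags about 1 in 20 groups by chance, but these genes move together on an array, so the groups are not separate trials. KO day 2 replicate 5 accounts for 7 of them, as the highest array: in Ly6C+ cells Egln3 at 10.16 (next 8.74), Ak4 at 7.88 (next 6.95) and Slc2a3 at 7.75 (next 7.32), and in Ly6C- cells Ero1a at 10.76 (next 9.96), Slc2a1 at 11.56 (next 11.03), Bnip3 at 9.91 (next 9.15) and Ak4 at 7.24 (next 6.35). WT day 2 replicate 4 accounts for 3, as the lowest array: in Ly6C+ cells Egln3 at 7.33 (next 9.55) and Ero1a at 9.46 (next 10.95), and in Ly6C- cells Slc16a3 at 9.42 (next 10.04). WT day 4 replicate 3 was lowest for Slc16a3 at 8.98 (next 9.11) and highest for Slc2a3 at 6.56 (next 6.50). KO day 4 replicate 1 was highest for Egln1 at 8.30 (next 8.06), and KO day 1 replicate 4 was highest for Hk3 at 9.21 (next 8.94). The labels give no feature that sets these arrays apart, and the source of their values was not tested.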

How the results depend on the processing

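Counts for day 4 against earlier groups, and the subset counts in WT and under rosiglitazone, stayed within 1.5 times under every alternative run. With WT day 2 replicates 1 to 3 alone, the genes called of 36 became 11 for day 2 over day 1 in WT, 10 and 6 for KO over WT in Ly6C+ and Ly6C- cells, 11 for rosiglitazone in Ly6C- cells, and 1, 9 and 4 for the interactions of genotype with subset, rosiglitazone with subset and genotype with day 2. With replicates 4 to 6 alone they became 5 for rosiglitazone in Ly6C+ cells and 0 for KO over WT in Ly6C- cells, and with replicates 5 and 6, 10 for day 2 over day 1 in WT and 3 for KO over WT in Ly6C+ cells. A fit to only the groups compared gave 28 for the KO subsets, 2 and 4 for day 2 over day 1 in WT and KO, and 0 for KO over WT in both subsets and for rosiglitazone in Ly6C+ cells. Quantile normalization gave 2 and 1 for day 2 over day 1 in WT and KO and 0 for KO over WT in both subsets. Centring arrays on their medians, and the fit without day 4, gave 0 for day 2 over day 1 in KO and 0 for KO over WT in Ly6C- cells. For KO over WT in Ly6C+ cells, leaving out dim genes gave 3, the mean over probe sets 0 and trended robust eBayes 2 (1 for day 2 over day 1 in KO), and in Ly6C- cells leaving out dim genes gave 0. With the replicate number as a block, on the arrays that share numbers, the counts were 29 for the KO subsets, 3 and 7 for day 2 over day 1 in WT and KO, 0 for KO over WT in both subsets, 8 for rosiglitazone in Ly6C- cells and 7 for its interaction with subset. The same arrays without the block gave 28, 3 and 7, 0, 9 and 3, so most of those moves came with the choice of arrays. On its own arrays the block moved the WT subset count to 20 from 13. Same-numbered arrays of the untreated subsets also tended to deviate together. The correlation exceeded 0.1 for 5 of 6 WT pairs (highest r = 0.6). It did so for 4 of 5 KO pairs (highest r = 0.285). The labels tie these arrays only by replicate number, and the main fits left this pairing out. Own-numbered arrays correlated best for 3 of 6 WT and 4 of 5 KO subset pairs. Hk1 reversed for day 4 over day 2 in WT under the mean over probe sets (-0.15). Beside the counts of 0, limma gave 1 to 6 genes at an unadjusted p under 0.05 in Ly6C- and 5 to 7 in Ly6C+ cells for KO over WT, 4 for day 2 over day 1 in KO and 24 for rosiglitazone. The cause was not tested.

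Leaving out arrays one at a time gave 15 to 21 and 16 to 27 for the KO and WT subsets, 8 to 11 under rosiglitazone, 0 to 3 and 3 to 10 for day 2 over day 1 in KO and WT, 25 to 27 and 28 to 30 for day 4 over day 2 Ly6C+, 24 to 27 and 24 to 28 over day 1, 17 to 18 and 21 to 27 over day 2 Ly6C-, 0 to 5 and 0 to 1 for KO over WT in Ly6C+ and Ly6C- cells, 11 to 26 and 0 to 2 for rosiglitazone in Ly6C+ and Ly6C- cells, 0 to 7 for its interaction with subset, and 0 for KO over WT at days 1 and 4 and for the other interactions. For KO over WT in Ly6C+ cells the highest count, 5, came without WT replicate 4. Centring moved the all-gene split for rosiglitazone in Ly6C+ cells to 1468 higher and 739 lower (1101 and 1117 as deposited), for day 4 over day 1 in WT to 4641 and 7462 (5179 and 4497), and for KO day 4 over day 2 Ly6C- to 2076 and 2838 (2607 and 2343). The set's own calls were then 0 higher and 21 lower (0 and 23 as deposited), 3 and 24 (4 and 24), and 1 and 18 (unchanged).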
